A study of Mus musculus with 12 samples.

Results

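The 29 genes described here make, package, take up or respond to the inhibitory transmitters GABA and glycine. The rule that picks them is a list of symbols and uses no measured value, though the list was drawn up with earlier results of these data known. They are 29 of the 45777 genes listed in the tables. Of the 29 genes, 16 encode subunits of the GABA-A receptor, 2 the GABA-B receptor, 5 the glycine receptor, 2 a postsynaptic scaffold and an adhesion protein, 2 GABA synthesis and 2 transport. Total RNA was sequenced from the ventral spinal cord of mouse embryos at E12.5 (E for embryonic day), cut out around the *Hb9::GFP* reporter, which marks motor neurons (MNs), at the brachial (forelimb) and lumbar (hindlimb) levels. At each level there were 3 libraries from *Isl2* +/- embryos, called heterozygotes, and 3 from *Isl2* knockout (KO) embryos. *Isl2* encodes a LIM-homeodomain transcription factor of MNs, and its KO allele carries a neomycin cassette in place of exons in every cell of the body. No wild-type libraries were compared, so each genotype difference is between 1 and 0 working copies of *Isl2*. The tissue holds MNs together with interneurons, progenitors and other cells of the ventral cord.

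GABA is made from glutamate by the decarboxylases encoded by *Gad1* and *Gad2*, and both GABA and glycine are loaded into vesicles by the transporter encoded by *Slc32a1*. Glycine neurons take glycine back up through the transporter encoded by *Slc6a5*. GABA-A and glycine receptors are pentameric chloride channels, and gephyrin, encoded by *Gphn*, anchors them at the synapse, while GABA-B receptors are heterodimers that act through G proteins. In the embryonic cord these transmitters depolarize neurons because intracellular chloride is high, and the α2 glycine receptor subunit is the fetal form that later gives way to α1.

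Values are StringTie's TPM, a transcript level scaled to gene length and library total, rescaled between libraries by size factors, so levels can be set side by side between genes. Differences are on the log2(TPM + 0.1) scale, which understates the change of low genes, and were fitted with limma over all genes with a mean of at least 0.5 TPM. A difference is called for *Isl2* KO against heterozygote within a level by the study's threshold, a log2 fold change beyond 0.5 with an unadjusted p under 0.05, and for lumbar against brachial by a Benjamini-Hochberg adjusted p under 0.05. The study gives its threshold for downregulated genes, and it is used here in both directions. With 3 libraries on each side, the smallest two-sided p that an exact permutation test of 1 gene can give is 0.1.

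An estimated 4.48 to 6.64 Gb of aligned sequence lay behind a library, inferred from the median ratio of coverage to FPKM in the deposited values. *Isl2* itself ranged from 8.29 to 9.68 TPM in brachial heterozygotes and from 4.46 to 7.25 TPM in brachial KO, and from 8.40 to 10.3 TPM against 6.51 to 8.21 TPM at the lumbar level, so KO libraries lay below heterozygote libraries at both levels while transcript remained. MN genes were present in every library, with *Mnx1*, which encodes Hb9, between 37.4 and 66.9 TPM. Genes of other cells were present too: 8 progenitor markers summed to between 804 and 1374 TPM, 14 transcription factors of spinal GABA and glycine neurons to between 112 and 176 TPM, and 4 blood genes to between 673 and 1656 TPM. Of the sensory neuron markers, *Scn10a* was at 0 in every library and *Scn11a* at 0.145 TPM or less, and the muscle regulator *Myod1* was at 0 throughout. Brachial KO replicate 3 had the lowest estimated depth and the highest blood gene sum, and it is the most extreme brachial KO library for several genes below. Values without it are given beside several of the results that it moved.

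Of the 29 genes, 20 had a mean of at least 0.5 TPM over the 12 libraries and were tested. Receptor genes spanned the widest range of levels. *Gabbr1*, the ligand-binding GABA-B subunit, was the single gene above 100 TPM, followed by *Glra2* at a mean of 57.0 TPM and *Gphn* at 54.0 TPM. The synthesis gene *Gad1* followed at 22.2 TPM and the β subunit gene *Gabrb2* at 16.9 TPM. At the low end, *Gabrb1* (1.25 TPM), *Gabrq* (0.896 TPM) and *Glra3* (0.838 TPM) stood close to the filter.

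**Figure D1:**
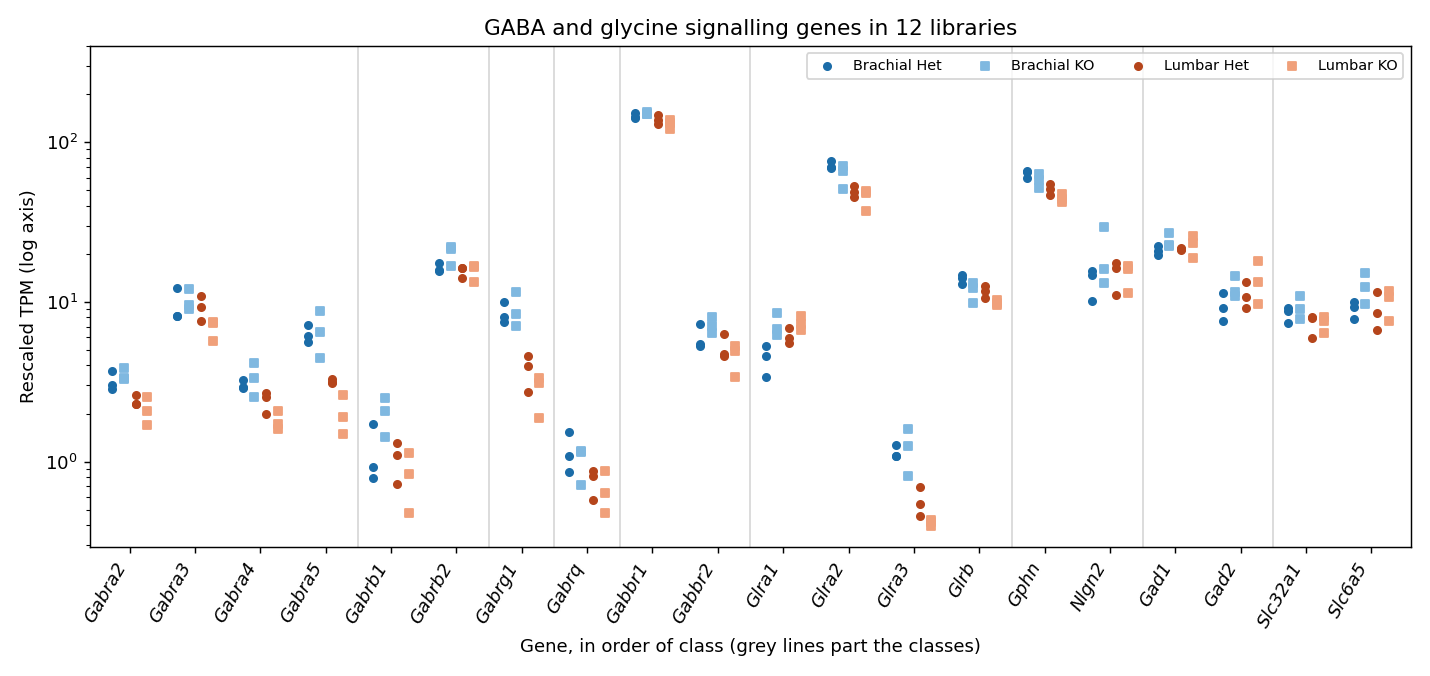
Rescaled TPM (log axis) of the 20 tested genes in each of the 12 libraries, ordered by class, with circles for heterozygotes and squares for *Isl2* KO. *Gabbr1* lies above 100 TPM in every library, and *Gabrg1*, *Gabra2*, *Gabra5* and *Glra3* lie lower in all lumbar than in all brachial libraries.

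The remaining 9 genes were below the filter. *Gabra6*, an α subunit known from cerebellar granule cells, was at 0 in every library. *Gabrg3* was above 0 in every library, between 0.0762 and 0.579 TPM. The rho subunits *Gabrr1*, *Gabrr2* and *Gabrr3*, known from the retina, reached at most 0.573 TPM, and *Gabrd*, *Gabre* and *Gabrp* at most 0.275 TPM. *Glra4* is on the study's list of genes lower in brachial KO, a list chosen on these same libraries. It was at 0 in 8 of the 12 libraries and at most 0.0618 TPM in the others, so no fold change is given for it.

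Among the GABA-A α subunits examined here, *Gabra3* had the highest level, with a mean of 8.96 TPM, followed by *Gabra5* at 4.52, *Gabra2* at 2.80 and *Gabra4* at 2.64 TPM. *Gabra3* made up 40.7% to 46.5% of the summed α subunit TPM of these genes in brachial libraries and 49.0% to 57.3% in lumbar libraries. *Gabra5* made up 23.0% to 30.6% in brachial and 14.1% to 19.9% in lumbar libraries, so that neither share overlapped between levels. These shares were computed after the values were seen and are a description.

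The first comparison asked whether the genes differ between lumbar and brachial cord, with genotype as a covariate, 6 against 6 libraries. Of the 20 tested genes, 8 were lower at the lumbar level at an adjusted p under 0.05 (limma), against 9.65% of all 16736 genes tested. None (0 of 20) was higher, against 8.88% of all genes. Without the adjustment, 14 of the 20 genes had p under 0.05, as had 32.2% of all genes. The median log2 difference of the 20 genes was −0.32, against 0.01 for all genes, and 18 of the 20 lay below 0, as did 47.9% of all genes. The 8 genes that fell encode the GABA-A subunits *Gabra2*, *Gabra4*, *Gabra5* and *Gabrg1*, the glycine receptor subunits *Glra2*, *Glra3* and *Glrb*, and the scaffold *Gphn*. *Glra3* passed the filter only through the brachial libraries, where it is high, so its fall is partly fixed by the filter. Among genes that passed at both levels, 7 of 19 were lower, against 9.38% of all 16234 such genes, with a median of −0.30. Without brachial KO replicate 3, all lumbar values of 7 of the 20 genes, *Glra3* among them, lay below all brachial values, against 7.23% of all genes. None (0 of 20) lay above, against 5.59%. The share of all genes separated in this way over all 12 libraries was not set beside the genes named below. The methods name 3 heterozygote and 3 homozygote animals for both levels, so the 12 libraries may come from fewer than 12 embryos. The labels do not tie a brachial to a lumbar library, and by *Xist* and Y-linked genes 1 of the 3 brachial and 2 of the 3 lumbar heterozygote libraries were female. Libraries were treated as separate, and where levels share embryos the p-values over 12 libraries do not allow for it.

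*Gabrg1*, a γ subunit, showed the largest fall of the 20 genes. It measured 7.43, 10.0 and 8.07 TPM in brachial heterozygotes and 8.42, 11.5 and 7.07 TPM in brachial KO, but 3.94, 4.55 and 2.71 TPM in lumbar heterozygotes and 3.12, 1.87 and 3.35 TPM in lumbar KO. Every lumbar library lay below every brachial library. The means were 8.75 ± 1.70 and 3.26 ± 0.938 TPM (SD, n = 6), a log2 difference of −1.43 (SE 0.19, adjusted p = 0.000521, limma).

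*Gabra5*, an α subunit of receptors that largely lie outside synapses, fell almost as far. Its values were 5.58, 7.19 and 6.14 TPM in brachial heterozygotes, 6.52, 8.83 and 4.43 TPM in brachial KO, 3.15, 3.27 and 3.10 TPM in lumbar heterozygotes and 1.92, 1.49 and 2.61 TPM in lumbar KO. The levels did not overlap. The log2 difference was −1.30 (SE 0.19, adjusted p = 0.000971, limma), from a mean of 6.45 ± 1.49 to 2.59 ± 0.736 TPM (SD, n = 6).

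*Gabra2* and *Gabra4* are α subunits with lower levels and smaller differences. *Gabra2* measured 3.02, 3.70 and 2.83 TPM in brachial heterozygotes, 3.31, 3.87 and 3.33 TPM in brachial KO, 2.31, 2.62 and 2.302 TPM in lumbar heterozygotes and 2.55, 1.70 and 2.09 TPM in lumbar KO. Its levels did not overlap, with a log2 difference of −0.55 (SE 0.13, adjusted p = 0.0101, limma). *Gabra4* measured 2.87, 3.25 and 2.92 TPM in brachial heterozygotes, 3.35, 4.15 and 2.55 TPM in brachial KO, 2.70, 1.999 and 2.555 TPM in lumbar heterozygotes and 1.59, 1.71 and 2.08 TPM in lumbar KO. Its ranges overlapped through brachial KO replicate 3, and its log2 difference was −0.58 (SE 0.15, adjusted p = 0.0192, limma), or −0.63 without that library, when the ranges did not overlap. The call for *Gabra4* was lost when the replicate number entered as a block.

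*Gabra3*, the most abundant of these α subunits, had a smaller difference that did not pass. It averaged 9.85 ± 1.81 TPM in brachial and 8.06 ± 1.82 TPM in lumbar libraries (SD, n = 6), a log2 difference of −0.30 with a 95% interval from −0.62 to 0.03. The β subunit gene *Gabrb2* measured 15.6, 17.5 and 15.7 TPM in brachial heterozygotes, 16.7, 21.4 and 22.2 TPM in brachial KO, 16.4, 16.2 and 14.2 TPM in lumbar heterozygotes and 16.5, 13.3 and 16.7 TPM in lumbar KO. Its values overlapped between levels, with a log2 difference of −0.22 (adjusted p = 0.133, limma). For *Gabrb1* the log2 difference was −0.66 (SE 0.30, adjusted p = 0.14), and for the θ subunit *Gabrq* it was −0.54 (SE 0.21, adjusted p = 0.0897), both limma and both from levels near 1 TPM.

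**Figure D2:**
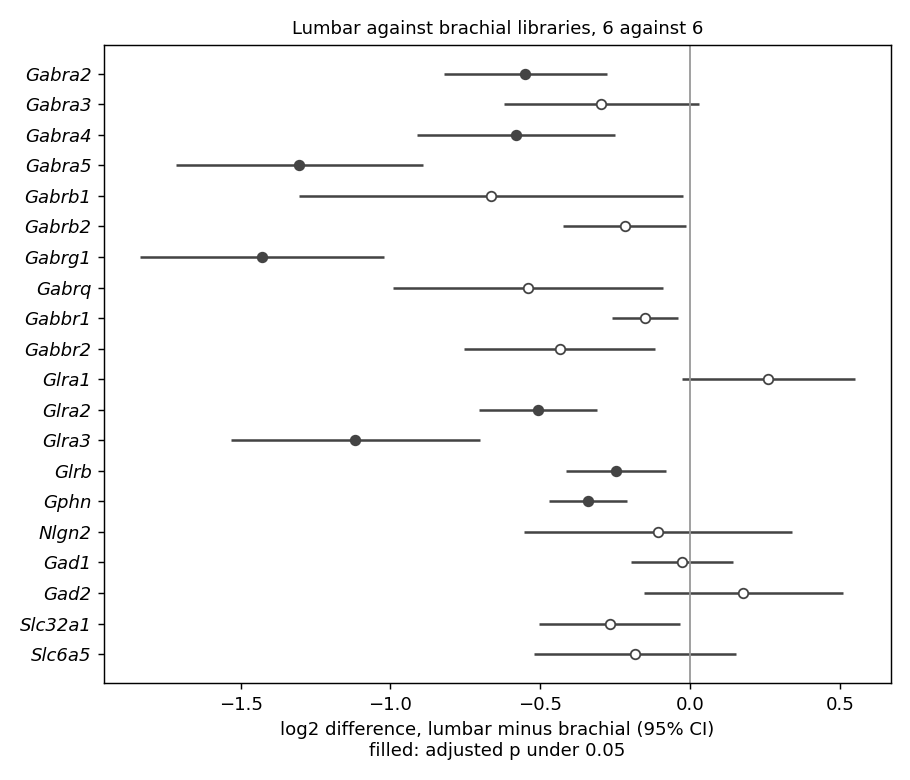
Log2 difference of lumbar minus brachial libraries with its 95% confidence interval (limma, 6 against 6, genotype as a covariate) for the 20 tested genes, with filled points for an adjusted p under 0.05. The 8 filled points all lie below 0, from −1.43 for *Gabrg1* to −0.25 for *Glrb*, and the intervals of *Gad1*, *Gad2*, *Slc6a5*, *Nlgn2*, *Gabra3* and *Glra1* span 0.

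Of the 5 glycine receptor genes, *Glra2* carried most of the transcript. It measured 68.9, 69.6 and 76.1 TPM in brachial heterozygotes, 65.9, 70.8 and 50.7 TPM in brachial KO, 53.2, 45.1 and 48.5 TPM in lumbar heterozygotes and 49.6, 37.3 and 48.1 TPM in lumbar KO. All brachial libraries other than KO replicate 3 lay above all lumbar libraries. The log2 difference was −0.51 (SE 0.09, adjusted p = 0.00287, limma), and −0.58 without that library.

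*Glra3*, the α3 subunit, measured 1.08, 1.27 and 1.09 TPM in brachial heterozygotes, 1.25, 1.61 and 0.814 TPM in brachial KO, 0.540, 0.698 and 0.459 TPM in lumbar heterozygotes and 0.395, 0.419 and 0.432 TPM in lumbar KO. Its levels did not overlap, with a log2 difference of −1.12 (SE 0.19, adjusted p = 0.00234, limma), but its lumbar mean, 0.490 TPM, is under the filter and it was tested only through its brachial values. *Glrb*, the β subunit that binds gephyrin, measured 12.9, 14.8 and 14.004 TPM in brachial heterozygotes, 12.3, 13.2 and 9.86 TPM in brachial KO, 10.6, 11.7 and 12.54 TPM in lumbar heterozygotes and 9.60, 9.90 and 10.3 TPM in lumbar KO. Its brachial and lumbar values overlapped and its log2 difference was −0.25 (SE 0.08, adjusted p = 0.0418, limma). Without brachial KO replicate 3 it was −0.30 (adjusted p = 0.00822, limma). The call for *Glrb* over the 12 libraries was lost in 16 of 26 alternative fits, among them all but 2 of those that each left out 1 library.

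*Glra1*, the α1 subunit of the mature receptor, was not called. It averaged 5.80 ± 1.78 TPM in brachial and 6.74 ± 0.919 TPM in lumbar libraries (SD, n = 6), a log2 difference of 0.26 with a 95% interval from −0.03 to 0.55 (adjusted p = 0.194, limma). Without brachial KO replicate 3 it was 0.34 with an interval from 0.07 to 0.61, which did not pass the adjustment either (adjusted p = 0.0743, limma).

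*Gphn*, the gephyrin gene, measured 59.7, 66.0 and 64.6 TPM in brachial heterozygotes, 57.5, 63.0 and 51.3 TPM in brachial KO, 46.5, 54.8 and 51.2 TPM in lumbar heterozygotes and 44.2, 42.2 and 47.1 TPM in lumbar KO. Its ranges overlapped through brachial KO replicate 3 and lumbar heterozygote replicate 2, and its log2 difference was −0.34 (SE 0.06, adjusted p = 0.00275, limma), and −0.37 without that KO library. *Nlgn2*, the adhesion protein of inhibitory synapses, measured 14.7, 15.7 and 10.2 TPM in brachial heterozygotes, 13.2, 16.1 and 29.5 TPM in brachial KO, 16.2, 17.4 and 10.97 TPM in lumbar heterozygotes and 16.7, 11.4 and 15.99 TPM in lumbar KO. Brachial KO replicate 3 stood far above the other 11 libraries for *Nlgn2*, and the log2 difference between levels was −0.11 (95% interval −0.55 to 0.34). Without that library it was 0.07 (95% interval −0.27 to 0.41).

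The GABA-B receptor subunits just missed the threshold. *Gabbr1* measured 144, 141 and 153 TPM in brachial heterozygotes, 149.8, 155 and 149.8 TPM in brachial KO, 148, 129 and 138 TPM in lumbar heterozygotes and 137, 132 and 121 TPM in lumbar KO. Its log2 difference was −0.15 (SE 0.05, adjusted p = 0.0578, limma). *Gabbr2*, the subunit that couples to G proteins, averaged 6.59 ± 1.08 TPM in brachial and 4.87 ± 0.948 TPM in lumbar libraries (SD, n = 6), a log2 difference of −0.44 (SE 0.15, adjusted p = 0.0569, limma).

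None of the 4 genes of the neurons that release GABA and glycine was called between the 2 levels. *Gad1* measured 20.7, 22.5 and 19.8 TPM in brachial heterozygotes, 22.4, 26.8 and 22.5 TPM in brachial KO, 21.4, 21.6 and 21.3 TPM in lumbar heterozygotes and 23.4, 18.7 and 25.8 TPM in lumbar KO. Its log2 difference between levels was −0.03 with a 95% interval from −0.20 to 0.14. *Gad2* measured 11.4, 9.13 and 7.64 TPM in brachial heterozygotes, 11.6, 10.9 and 14.5 TPM in brachial KO, 10.8, 13.4 and 9.20 TPM in lumbar heterozygotes and 13.3, 9.65 and 18.1 TPM in lumbar KO. Its interval, −0.16 to 0.51 around 0.18, was wider, since lumbar KO replicates 2 and 3 alone differed from 9.65 to 18.1 TPM.

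*Slc6a5* measured 9.23, 10.0 and 7.86 TPM in brachial heterozygotes, 9.685, 12.4 and 15.1 TPM in brachial KO, 8.51, 11.4 and 6.67 TPM in lumbar heterozygotes and 10.7, 7.54 and 11.7 TPM in lumbar KO, with a log2 difference between levels of −0.18 (95% interval −0.52 to 0.15). *Slc32a1* averaged 8.84 ± 1.21 TPM in brachial and 7.31 ± 0.916 TPM in lumbar libraries (SD, n = 6), a log2 difference of −0.27 with a 95% interval from −0.50 to −0.03, which did not pass the adjustment (adjusted p = 0.105, limma). The 4 genes summed to between 42.6 and 60.015 TPM in brachial and between 42.3 and 63.1 TPM in lumbar libraries.

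The list of other genes of GABA and glycine signalling held 31 genes, of which 28 were tested between levels. At the lumbar level 11 were lower and 2 higher at an adjusted p under 0.05 (limma), against the same 9.65% and 8.88% of all genes. Lower genes included *Slc6a11*, a GABA transporter of glial and other cells, with a log2 difference of −1.73, and both enzymes of GABA breakdown, *Abat* (−0.47) and *Aldh5a1* (−0.58). Also lower were *Kctd8* (−0.44) and *Kctd12* (−0.68), which encode auxiliary subunits of the GABA-B receptor, and *Iqsec3* (−0.61), which encodes a partner of gephyrin. *Clptm1* (−0.21), which holds back the transport of GABA-A receptors to the surface, and *Tspoap1* (−0.37) were lower by less. The 2 higher genes, *Shmt1* (0.86) and *Gldc* (0.28), act in the making and the cleavage of glycine. Within either level none of these genes (0 of 29 brachial, 0 of 28 lumbar) passed the study's threshold for *Isl2* KO, which 2.23% of all genes passed upward and 0.874% downward in brachial and 0.975% and 0.793% in lumbar libraries, so that counts near 0 lie close to these shares. An unadjusted p under 0.05 was found for 4 of 29 in brachial and 1 of 28 in lumbar libraries (limma). Of all genes, 13.8% and 4.88% had one, so these counts too lie close to the shares of all genes.

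Markers of other cells moved with level as well. The 8 progenitor markers summed to between 804 and 1034 TPM in brachial and between 1061 and 1374 TPM in lumbar libraries, without overlap, and 4 of the 8 were higher and 1, *Olig2*, lower at the lumbar level. The 8 MN markers summed to between 431 and 509 TPM in brachial and between 184 and 320 TPM in lumbar libraries, and the 2 of them called, *Prph* and *Slc5a7*, were lower. *Prph* alone ranged from 224 to 318 TPM in brachial and from 30.9 to 76.4 TPM in lumbar libraries. Without *Prph* the sums overlapped, from 185 to 208 TPM and from 150.2 to 244 TPM, and the median log2 difference of the 8 markers was 0.13. Of the 14 transcription factors of GABA and glycine neurons, *Pax8* and *En1* were higher at the lumbar level and none was lower, with sums of 112 to 169 TPM and 142 to 176 TPM. The sums of the 7 pan-neuronal markers overlapped between levels, from 4742 to 5748 TPM and from 4303 to 5604 TPM, and 1 of the 7, *Snap25*, which encodes a protein of transmitter release, was lower at the lumbar level (107 to 129 TPM in brachial and 77.3 to 100.005 TPM in lumbar libraries, log2 difference −0.45, limma adjusted p = 0.000465). The part of these markers in the differences above was not tested, and in bulk tissue fewer cells of a type and less RNA per cell cannot be told apart.

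**Figure D3:**
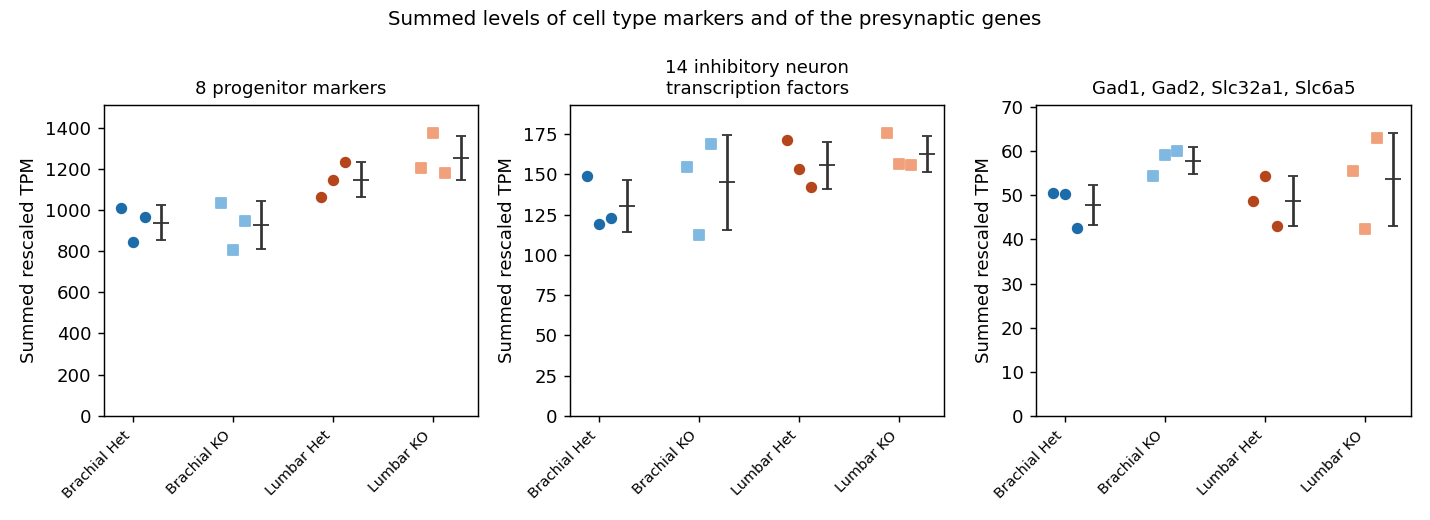
Summed rescaled TPM of the 8 progenitor markers, the 14 transcription factors of GABA and glycine neurons, and *Gad1*, *Gad2*, *Slc32a1* and *Slc6a5* in each library, with group mean ± SD (n = 3). The progenitor sums do not overlap between brachial (804 to 1034 TPM) and lumbar (1061 to 1374 TPM) libraries, and the sums of the 4 presynaptic genes do.

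The genes also share places in the genome (coordinates of the files, mm10). On chromosome 5, *Gabrg1* (chr5:70751047-70842617), *Gabra2* (chr5:70958392-71095849), *Gabra4* (chr5:71569734-71658308) and *Gabrb1* (chr5:71657921-72149572) form one cluster. The 4 log2 differences between levels there were −1.43, −0.55, −0.58 and −0.66, of which that of *Gabrb1* did not pass. *Gabra4* and *Gabrb1* run in opposite directions and share 388 bases at their 5′ ends, and the counting of reads by strand is not stated, so reads of that stretch may be split between them. *Gabra5* lies on chromosome 7 (chr7:57407669-57591016), where its span overlaps those of 3 other genes, 1 of them protein-coding, so its reads too may be split. The others described in most detail are *Glra3* on chromosome 8 (chr8:55940418-56130070), *Glra2* on chromosome X (chrX:165129017-165327867), *Glra1* on chromosome 11 (chr11:55514239-55608198) and *Gad1* on chromosome 2 (chr2:70561303-70602014), where it overlaps a long noncoding RNA gene. The span of *Glra1* overlaps 2 other genes and that of *Glra3* overlaps 1, none of them protein-coding, so their reads may be split as well.

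Promoter sequences of RefSeq (GRCm38.p6) matched 27 of the 29 genes, with 32 windows in all. *Glra1* and *Gabrd* had no entry. The 250 bases before the start are shown for the 3 genes with the largest differences between levels, *Gabrg1*, *Gabra5* and *Glra3*, which fell together, and for *Gad1*, which did not. For *Gabra5* and *Gad1* this start lies within the span given above. The sequences are written 5′ to 3′ on the strand of the gene, and capitals mark the letters TAAT on either strand (TAAT or ATTA, overlaps included), the core that many homeodomain proteins recognize.
Gabrg1, chr5:70842618-70842867, minus strand: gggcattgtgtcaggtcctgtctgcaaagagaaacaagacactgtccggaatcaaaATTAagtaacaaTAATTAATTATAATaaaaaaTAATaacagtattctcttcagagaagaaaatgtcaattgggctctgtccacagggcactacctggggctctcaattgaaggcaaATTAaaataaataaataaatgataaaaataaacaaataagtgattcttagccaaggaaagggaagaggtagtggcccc
Gabra5, chr7:57510060-57510309, minus strand: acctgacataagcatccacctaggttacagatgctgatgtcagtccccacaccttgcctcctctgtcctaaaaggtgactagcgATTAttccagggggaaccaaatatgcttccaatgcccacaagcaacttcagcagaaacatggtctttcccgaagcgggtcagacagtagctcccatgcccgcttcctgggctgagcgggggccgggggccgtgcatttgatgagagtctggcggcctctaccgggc
Glra3, chr8:55940168-55940417, plus strand: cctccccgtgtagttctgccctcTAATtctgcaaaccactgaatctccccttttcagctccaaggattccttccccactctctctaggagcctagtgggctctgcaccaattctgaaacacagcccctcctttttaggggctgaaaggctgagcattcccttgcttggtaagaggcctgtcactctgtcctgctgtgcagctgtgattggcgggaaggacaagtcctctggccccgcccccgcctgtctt
Gad1, chr2:70561879-70562128, plus strand: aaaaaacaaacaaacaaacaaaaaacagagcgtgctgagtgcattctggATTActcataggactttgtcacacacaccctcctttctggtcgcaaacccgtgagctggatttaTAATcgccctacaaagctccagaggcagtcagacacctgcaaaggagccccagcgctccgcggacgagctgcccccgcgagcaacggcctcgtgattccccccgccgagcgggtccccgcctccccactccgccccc

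These letters occur 8 times in the *Gabrg1* window, once each in those of *Gabra5* and *Glra3*, and 2 times in that of *Gad1*. At least 1 match was found in 14 of the 32 windows of the genes described here and in 54.9% of all 32851 windows. The longer run TAATTA, which reads the same on both strands, was found in the window of *Gabrg1* alone among the 32, and in 4.84% of all windows. A match is a run of letters and not a measured binding site.

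Next, *Isl2* KO was compared with heterozygotes at the brachial level, 3 against 3. By the study's threshold, 2 of the 20 tested genes were higher in KO, *Glra1* and *Gabrb1*, against 2.23% of all 16935 genes tested. None (0 of 20) was lower, against 0.874% of all genes. No gene of the 20 reached an adjusted p under 0.05 (limma, smallest 0.359), and 4 had an unadjusted p under 0.05, as had 13.8% of all genes. The median log2 fold change of the 20 was 0.12, with 16 above 0, while that of all genes was −0.01, with 48.2% above 0. The median of the 20 was 0.05 without KO replicate 2, 0.08 without heterozygote replicate 3 and 0.22 without KO replicate 3.

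*Glra1* measured 4.61, 5.32 and 3.39 TPM in brachial heterozygotes and 6.19, 6.76 and 8.51 TPM in brachial KO. All KO libraries lay above all heterozygote libraries (exact permutation test, p = 0.1), as did 9.67% of all genes, and *Glra1* was the only one of the 20 to do so. Without brachial KO replicate 3, *Gabra4* did so as well, 2 of 20 against 12.4% of all genes. None of the 20 was separated in the other direction, where 10.3% of all genes were. The log2 fold change of *Glra1* was 0.69 (SE 0.20, 95% interval 0.23 to 1.15, adjusted p = 0.359, limma). It passed the study's threshold in all 19 alternative fits, with 0.56 without brachial KO replicate 3.

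*Gabrb1*, a β subunit, measured 0.792, 1.72 and 0.925 TPM in brachial heterozygotes and 1.43, 2.51 and 2.08 TPM in brachial KO. The groups overlapped, and its fold change of 0.80 on the log2 scale (SE 0.34; limma, adjusted p = 0.359) lost the threshold in 9 of 19 alternative fits, among them those without heterozygote replicate 1 or 3 and without KO replicate 2 or 3, the last of which gave 0.75. *Gabrb2* (0.29) and *Slc6a5* (0.44) had an unadjusted p under 0.05 without reaching a log2 fold change of 0.5, and neither kept it without brachial KO replicate 3 (0.22 and 0.28). *Gad2* had a log2 fold change of 0.40 with an interval from −0.00059 to 0.80. The 4 blood genes summed to between 673 and 1211 TPM in brachial heterozygotes and between 993 and 1656 TPM in brachial KO, and their part was not tested. The count of 2 fell to 1 without heterozygote replicate 3, KO replicate 2 or KO replicate 3, and rose to 4 without KO replicate 1.

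In the lumbar libraries 19 of the genes were tested, since *Glra3* was under the filter there. By the study's threshold 1 gene was lower in *Isl2* KO, *Gabra5*, against 0.793% of all 16511 genes, and 0 of 19 were higher, against 0.975%. No adjusted p fell under 0.05 (limma), and 2 genes, *Gabra5* and *Gabra3*, had an unadjusted p under 0.05, as had 4.88% of all genes. The median log2 fold change was −0.19, with 14 of 19 below 0, against −0.01 for all genes, of which 52.6% lay below 0. It was −0.02 without KO replicate 2 and −0.07 without heterozygote replicate 1.

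*Gabra5* averaged 3.17 ± 0.0892 TPM in lumbar heterozygotes and 2.01 ± 0.566 TPM in lumbar KO (SD, n = 3). Its log2 fold change was −0.67, with an SE of 0.22 and a 95% interval from −1.18 to −0.16 (limma, adjusted p = 0.999). It is on the study's list of genes lower in lumbar KO, which was chosen on these libraries, so this value is not independent evidence of its direction. The threshold was lost without lumbar KO replicate 2, with a pseudocount of 1, and with coverage in place of TPM. *Gabra3* measured 10.96, 9.28 and 7.63 TPM in lumbar heterozygotes and 7.46, 5.69 and 7.34 TPM in lumbar KO, a log2 fold change of −0.43.

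At the lumbar level the KO libraries of 3 genes, *Gabra3*, *Gabra5* and *Glrb*, were all under the heterozygote range, each at p = 0.1 in the exact permutation test, as did 5.51% of all genes. None (0 of 19) was separated upward, against 4.43% of all genes. *Glra1* measured 6.90, 5.97 and 5.56 TPM in lumbar heterozygotes and 8.14, 7.25 and 6.65 TPM in lumbar KO, which overlapped, with a log2 fold change of 0.26 (95% interval −0.05 to 0.56). Few markers of other cells passed the threshold. In lumbar KO, 1 of the 8 MN markers was lower, *Prph* (−0.78), and 1 of the 14 transcription factors of GABA and glycine neurons was higher, *Ptf1a* (0.81), with a median of 0.03 for the 14. In brachial KO, 1 of the 14, *Gata3* (0.71), was higher, with a median of 0.11, and 1 of the 4 sensory neuron markers tested, *Prdm12* (0.96). The brachial pan-neuronal sum was 5090 to 5748 TPM in heterozygotes and 4742 to 4937 TPM in KO, without overlap, though its 7 markers had a median log2 fold change of 0.10. The brachial MN sum (494 to 509 and 431 to 476 TPM) and sensory neuron sum (355 to 377 and 296 to 327 TPM) did not overlap either. Without *Prph* and without *Sncg*, respectively, they did. The part of these markers in the values above was not tested.

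**Figure D4:**
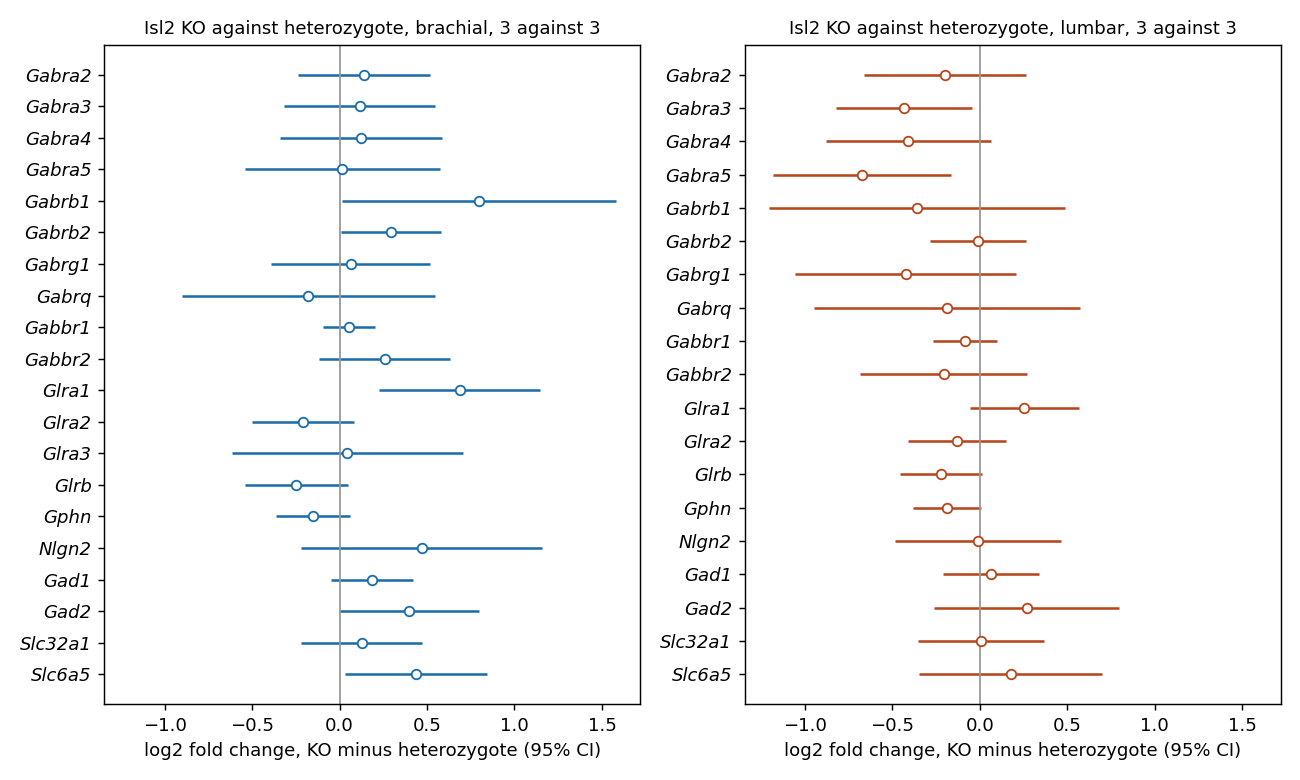
Log2 fold change of *Isl2* KO against heterozygote with its 95% confidence interval (limma, 3 against 3) at the brachial level for 20 genes and at the lumbar level for 19. Open points show that no adjusted p was under 0.05, with *Glra1* (0.69) and *Gabrb1* (0.80) farthest above 0 in brachial and *Gabra5* (−0.67) farthest below 0 in lumbar libraries.

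Over both levels together, with level as a covariate, *Glra1* was higher and *Glrb* and *Gphn* lower in *Isl2* KO at an unadjusted p under 0.05, that is 1 of 20 higher against 6.1% of all genes and 2 of 20 lower against 7.94%. None of the 3 passed the adjustment (limma). The log2 fold change of *Glra1* was 0.47 (SE 0.13, adjusted p = 0.293), that of *Glrb* −0.23 (SE 0.08, adjusted p = 0.303) and that of *Gphn* −0.17 (SE 0.06, adjusted p = 0.317). *Glra1* kept its unadjusted call in all 24 alternative fits. Both *Glrb* and *Gphn* lost it with the values as deposited, without rescaling, and *Gphn* also with quantile normalization. Without brachial KO replicate 2 or lumbar heterozygote replicate 2 the count of 3 became 5, and without lumbar KO replicate 2 it became 7. The shares of all genes called in those fits were not set beside these counts.

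The share of *Glra1* among the glycine receptor α subunits is described by group. *Glra1* made up 4.21% to 6.98% of the summed α subunit TPM in brachial heterozygotes and 8.44% to 14.2% in brachial KO. In lumbar libraries it made up 10.2% to 11.5% in heterozygotes and 12.1% to 16.1% in KO. At neither level did the genotypes overlap, and *Glra2* made up between 83.0% and 94.4% in every library. This share was computed after the values of *Glra1* were seen, so it is given without a test. *Glra1* is its numerator, so it largely restates that gene, whose own TPM overlapped between genotypes at the lumbar level.

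**Figure D5:**
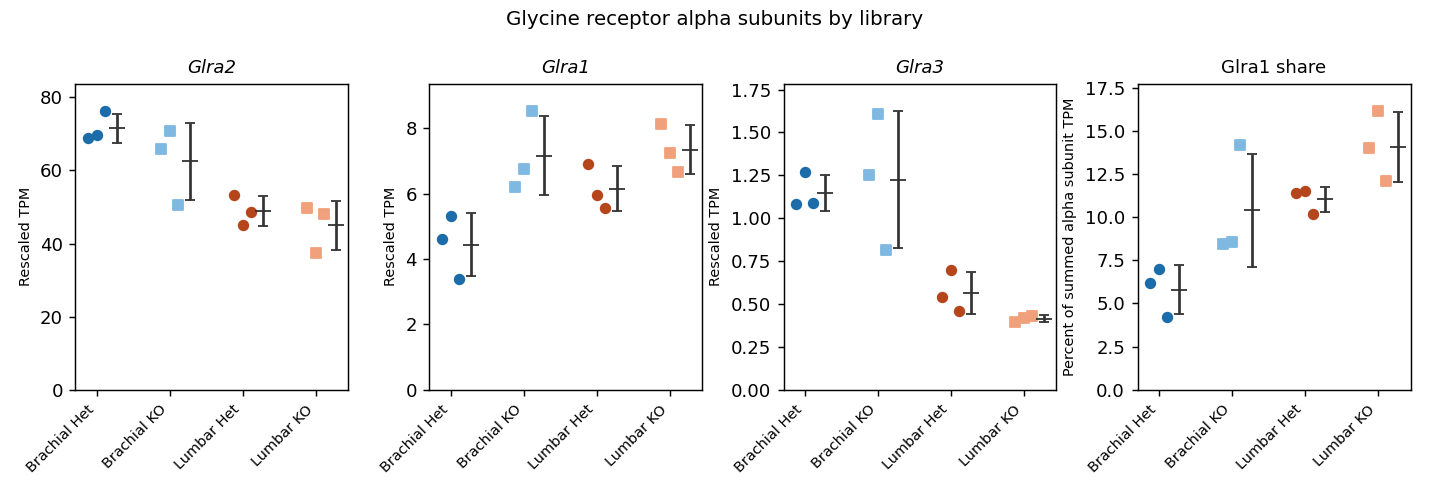
Rescaled TPM of *Glra2*, *Glra1* and *Glra3* and the share of *Glra1* in the summed α subunit TPM, in percent, for each library, with group mean ± SD (n = 3). *Glra2* and *Glra3* are lower in lumbar libraries, and the share of *Glra1* runs from 4.21% in brachial heterozygotes to 16.1% in lumbar KO.

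Last, the *Isl2* KO effect at the lumbar level was set against that at the brachial level by an interaction term over 12 libraries. With an unadjusted p under 0.05, 1 of the 20 genes differed, *Gabrb1*, against 4.42% of all genes in either direction. Its lumbar effect minus its brachial effect was −1.16 (SE 0.51, adjusted p = 0.812, limma), and 0 of the 20 passed the adjustment. That unadjusted call for *Gabrb1* was lost in 9 of 24 alternative fits: without a filter, and without brachial heterozygote replicate 1 or 3, brachial KO replicate 2 or 3, lumbar heterozygote replicate 1 or 2, or lumbar KO replicate 2 or 3. The median difference of the 20 genes was −0.32, with 18 below 0, while that of all genes was −0.0034, with 50.5% below 0. It rests on the same libraries as the brachial and lumbar medians above and was −0.23 without brachial KO replicate 3 and −0.20 without lumbar KO replicate 2. For *Gabra5* the difference was −0.69 (95% interval −1.43 to 0.06) and for *Glra1* −0.43 (95% interval −0.97 to 0.11), both of which span 0. Without brachial KO replicate 3 the difference for *Gabra5* was −0.94 (95% interval −1.59 to −0.29, adjusted p = 0.941, limma), and *Gabra5*, *Gabra4* and *Gabra3* were the 3 genes with an unadjusted p under 0.05. The share of all genes called in that fit was not set beside this count. Leaving out single libraries gave between 0 and 4 genes, with 0 without brachial heterozygote replicate 1 or 3, brachial KO replicate 2, lumbar heterozygote replicate 1 or lumbar KO replicate 2. The count was 4 without brachial heterozygote replicate 2, 3 without brachial KO replicate 3, and 2 without brachial KO replicate 1 or lumbar heterozygote replicate 3.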

How the data were processed

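Total RNA of the E12.5 ventral cord was sequenced in 12 libraries. Per the labels and methods, the authors used Trimmomatic (0.38) for trimming, HISAT2 (2.1.0) and Bowtie2 (2.3.4.1) for mapping to mm10, and StringTie (2.1.3b) for abundance. The deposited TPM values, and the FPKM values and the coverage signal used as alternatives, came from the authors' StringTie run, and no read counts were used here. Small RNAs took 23.7% to 38.2% of TPM, so TPM was divided by median-of-ratios size factors (0.896 to 1.25). Symbols came from RefSeq (GRCm38.p6) for 45679 identifiers. limma 3.58.1 (R 4.3.3; lmFit, eBayes with trend) was fitted to log2(TPM + 0.1) for genes whose TPM averaged 0.5 or more, and was tested on simulated data. Python 3.11.15, pandas 2.3.3 and matplotlib 3.10.9 were used. Genes given library by library have a mean of at least 10 TPM, a call in a fit, or a place on the study's lists. The genes and lists were chosen with earlier results of these data known. Depth limits precision for the low genes, whose counting error cannot be read from TPM.

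Replicates are separate libraries, and the labels do not say which levels come from one embryo. By *Xist* and Y-linked genes, 3 of the 6 same-numbered brachial and lumbar libraries differed in sex, so replicate numbers were not used to pair them. Alternatives were other pseudocounts, filters, units, scalings, a replicate block, sex as a term, protein-coding genes alone, and leaving out each library.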

Additional observations from a re-analysis of the deposited data

How the results depend on the processing

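The median differences of the genes kept their sign under every alternative run, from −0.46 to −0.21 between levels (26 alternatives), from 0.05 to 0.30 for brachial KO and from −0.20 to −0.02 for lumbar KO (19 each). The median of the interaction, whose 24 alternatives were chosen after seeing the data, ran from −0.48 with the values as deposited to −0.17 without a filter, and from −0.41 to −0.20 with single libraries left out. The largest brachial median, 0.30, came with the values as deposited, without rescaling. No gene named for a call changed direction, while *Nlgn2*, which was not called, turned from −0.11 to 0.07 between levels without brachial KO replicate 3. The brachial count of genes past the study's threshold, 2, became 1 with a pseudocount of 1, a filter at a mean TPM of 1, eBayes without a trend, or sex as a covariate, and 4 with the values as deposited, and ranged from 1 to 4 when single libraries were left out. The lumbar count, 1, became 0 with a pseudocount of 1 or with coverage and 2 with sex as a covariate, and ranged from 0 to 2 with single libraries left out. The 8 genes lower at the lumbar level became 3 in heterozygote libraries alone (*Gabrg1*, *Gabra5*, *Glra2*) and 2 in KO libraries alone (*Gabrg1*, *Gabra5*), 2 alternatives chosen after seeing the data, each with 3 against 3 libraries. Leaving out single libraries gave 7 to 9. The count over both levels, 3, ranged from 3 to 7 with single libraries left out, and the interaction count, 1, from 0 to 4. The interaction count was 2 with quantile normalization and 4 with sex as a covariate. With the replicate number as a block it was 3, and the genes called between levels were 6, but the correlations of same-numbered libraries ran from −0.22 to 0.34, so the samples share only a number. The shares of all genes called were not set beside the counts of these alternatives, and the cause of these shifts was not tested. Each fit within a level rests on 3 against 3 libraries.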

Other observations

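Ratios of paired genes, computed after the values were seen, are given as levels with no test. *Gad2*, the synaptic form of the GABA-making enzyme, stood at 0.386 to 0.643 of the TPM of *Gad1* in brachial libraries and at 0.433 to 0.702 in lumbar libraries. *Gabbr1* exceeded *Gabbr2*, its obligate partner at the cell surface, by 19.3 to 28.97 times in brachial and by 23.5 to 38.9 times in lumbar libraries. The summed glycine receptor α subunits stood at 5.17 to 6.09 times the TPM of *Glrb* in brachial libraries and at 4.35 to 6.06 times in lumbar libraries. The 29 genes together summed to between 407 and 460 TPM in brachial libraries and between 313 and 379 TPM in lumbar libraries, without overlap. This sum weighs abundant genes most. Of its mean of 390 TPM over the 12 libraries, *Gabbr1*, which was not called, took 142, *Glra2* 57.0 and *Gphn* 54.0 TPM. The summed TPM of *Gabrg1* and *Gabrg3* ranged from 7.35 to 12.1 in brachial libraries and from 1.94 to 4.69 in lumbar libraries.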
